A study of Mus musculus with 12 samples.

Results

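Insulin acts on fat cells through its receptor, the substrates bound to it, PI3-kinase, AKT and the glucose transporter GLUT4. The mRNA of 9 genes of this route was followed in cells that carry a mutant or a ligand-bound form of PPARγ, a nuclear receptor and main regulator of fat cell formation. The members were Insr, Irs1, Irs2, Pik3r1, Akt1, Akt2, Rictor, Cbl and Slc2a4, and every probe set annotated to exactly 1 of these symbols was taken. That gave 16 of 22690 probe sets and 9 of 12393 genes on the array. All cells were mouse embryonic fibroblasts lacking their own PPARγ, differentiated for 6 days. The S273A group carried PPARγ with a serine replaced by alanine at the position in the name, and was given no ligand. The rosiglitazone group carried wild-type PPARγ and was exposed to 1 µM rosiglitazone for 24 h. The MRL24 group carried wild-type PPARγ and was exposed to 1 µM MRL24 for 24 h. The untreated wild-type group carried wild-type PPARγ and no ligand is named for it. Each group had 3 arrays. The titles of the arrays speak of mutant PPARγ, and S273A is the substitution given for the series, so the mutant arrays were read as S273A. The labels point to 1 set of cells for each form of PPARγ, so the form and that set of cells cannot be told apart. The labels name neither a vehicle nor an exposure to insulin, nor state whether the arrays of a group stand for separate cultures, so p-values measure only the spread between these samples, which may be technical.

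Insulin binding switches on the tyrosine kinase of its receptor, which phosphorylates IRS proteins. These recruit PI3-kinase, whose lipid product brings AKT to the membrane, where PDK1 and the mTOR complex that holds RICTOR phosphorylate it. Active AKT lets vesicles that carry GLUT4 reach the surface of fat and muscle cells, and glucose enters. Rosiglitazone is a thiazolidinedione and a full agonist of PPARγ used to improve insulin sensitivity, and MRL24 is a partial agonist. The serine that S273A removes is a phosphorylation site of PPARγ.

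The deposited values were intensities on a linear scale, with array medians between 297 and 315. The arrays were compared with limma, all 12 in 1 fit on log2(value + 16), over the 15838 probe sets whose mean intensity reached 100.86, the 30th percentile. A call means an adjusted p under 0.05 (Benjamini-Hochberg) over all of these, and differences below are on that log2 scale, which understates changes of dim probe sets. Of the 16 member probe sets 14 were tested, and 1 of Insr and 1 of Slc2a4 lay below the filter. Replicate 2 of untreated wild-type cells stood apart: its array weight was 0.287, against 0.704 to 1.83 for the other 11 arrays, and its residual SD was 0.153, against 0.0959 to 0.128. All 3 comparisons with untreated cells use it, and since they share the same 3 untreated arrays, a change seen in all of them is not 3 separate observations. Of 15 adipocyte markers on the array 10 were tested. Adiponectin lay below the filter with group means of 97.2 (S273A), 139 (rosiglitazone), 68.0 (MRL24) and 53.5 (untreated), as did leptin with means of 9.2 to 15. Summed over the markers on the array, intensity was 16296 to 17239 in S273A arrays, 34802 to 35276 in rosiglitazone arrays and 22489 to 22649 in MRL24 arrays, against 14978 to 16827 in untreated arrays. Most of each sum came from 1 gene, Fabp4. It averaged 9701 in S273A cells, 25153 with rosiglitazone and 15339 with MRL24, against 9509 in untreated cells. The sums therefore do not show how the other markers moved.

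Of the 9 genes, 4 (Insr, Irs1, Irs2 and Akt1) had no called probe set in any comparison. Rictor rose in all 3 comparisons, 1.44-fold in S273A cells, 1.53-fold with rosiglitazone and 1.67-fold with MRL24. A probe set of Pik3r1, the regulatory subunit of PI3-kinase, fell in S273A cells, and that probe set and another fell with rosiglitazone. A probe set of Slc2a4, which encodes GLUT4, and a probe set of Akt2 rose with MRL24, and a probe set of Cbl rose with rosiglitazone. No member probe set was called between rosiglitazone and MRL24. Only the Rictor calls and the Pik3r1 call in S273A cells passed under all of the alternative fits run for them. Among these, fits without an array of a group outside the comparison left the log2 difference as it was. They could change only its adjusted p.

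In S273A cells 1 of the 14 member probe sets was called higher and 1 lower, 14.3%, where 7.71% of all tested probe sets were called (2.58% higher, 5.13% lower). With rosiglitazone 2 were called higher and 2 lower, 28.6%, where 9.24% of all were called (5.03% higher, 4.21% lower). With MRL24 3 were called higher and 0 lower, 21.4%, where 8.44% of all were called (5.76% higher, 2.67% lower). Scaled to the same median, the arrays gave a different split of all calls with MRL24, 632 higher and 833 lower, where the deposited scaling gave 913 and 423. The members' shares rest on 2 to 4 probe sets, some of them of the same gene. Taking only the brightest probe set of each of the 9 genes, 1, 1 and 2 were called, where 7.23%, 8.19% and 6.69% of 9154 genes were. At an unadjusted p under 0.05 the counts were 4, 6 and 5 of 14, where 22.1%, 24.2% and 26.0% of all tested probe sets lay under it. The arrays of the groups did not overlap for 4, 6 and 5 of the 14, where this held for 23.2%, 26.5% and 30.3% of all tested probe sets. The median log2 difference of the members was 0.02 in S273A cells, 0.13 with rosiglitazone and 0.06 with MRL24, beside 0.00, 0.00 and 0.02 over all tested probe sets. Without untreated replicate 2 the counts of called members were 2, 3 and 1. In that fit 1121, 1087 and 493 of all 15838 tested probe sets were called. With every array included these were 1221, 1463 and 1336, so the drop in calls with MRL24 was not confined to the members. Nor was it confined to the fit without untreated replicate 2. Without MRL24 replicate 1, 2 or 3, 1 member was called with MRL24, and 672, 427 or 322 of all tested probe sets.

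**Figure D1:**
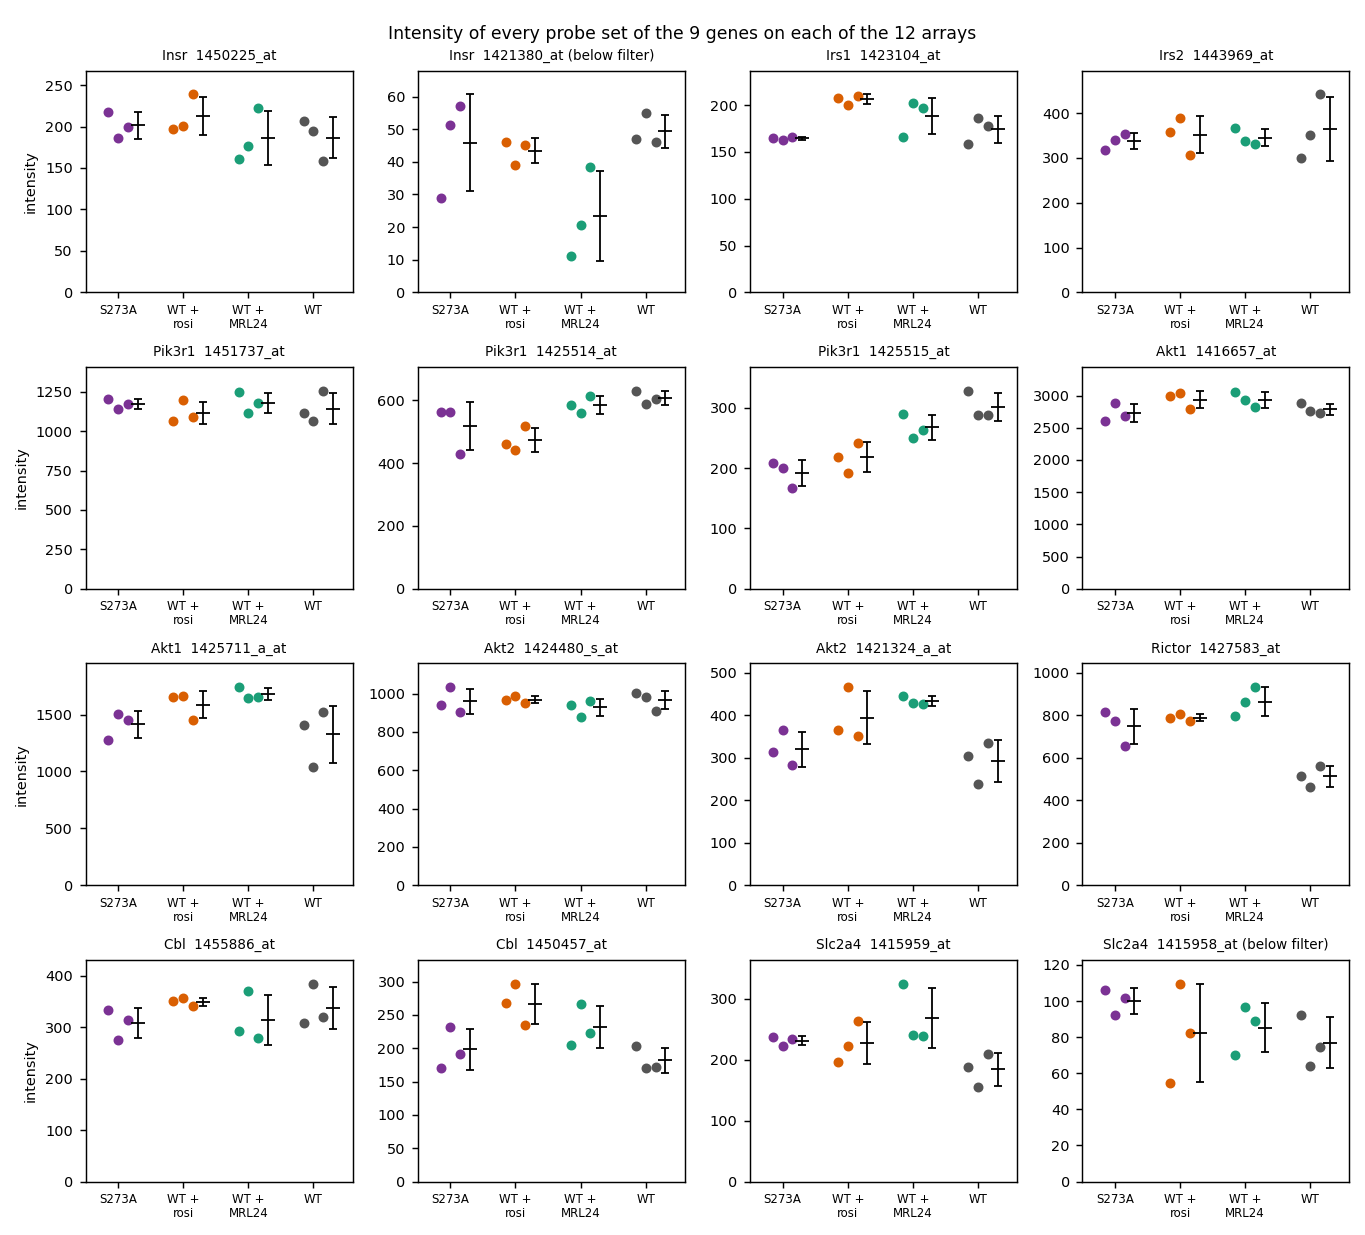
Intensity (linear scale, arbitrary units, one panel per probe set) of the member probe sets on each of the 12 arrays, with S273A, rosiglitazone and MRL24 left of untreated wild-type cells. Points are arrays, and the black marks beside them are group means with bars of ± 1 SD; for Rictor all 9 other arrays lie above the 3 untreated ones.

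The upper end of the route, the receptor and its substrates, showed no call. Insr, the insulin receptor gene (chromosome 8, 3150922 to 3279649, GRCm38.p6), read 218, 186 and 199.65 in S273A arrays, 197, 201 and 239 in rosiglitazone arrays and 160.2, 176 and 222 in MRL24 arrays, against 206, 195 and 158 in untreated arrays. The groups overlapped, and the log2 differences were 0.11, 0.18 and -0.01 with an SE of 0.13. A second, dimmer Insr probe set lay below the filter, at 11.03, 20.7 and 38.3 in MRL24 arrays against 46.9, 55.1 and 45.97 in untreated arrays. The MRL24 arrays were the lower there without overlap, and in a fit with no filter its adjusted p was 0.101.

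Irs1, the receptor substrate best known from muscle and fat (chromosome 1, 82233105 to 82291439), read 164, 163 and 166 in S273A arrays, 208, 200.03 and 210.15 in rosiglitazone arrays and 166, 202 and 197 in MRL24 arrays, against 158, 186 and 178 in untreated arrays. The rosiglitazone arrays lay above the untreated ones without overlap, but the log2 difference of 0.23 (SE 0.11) had an adjusted p of 0.217 in limma. Irs2, a related substrate with a large role in liver (chromosome 8, 10984681 to 11008929), had 318 to 354 in S273A arrays, 307 to 389 in rosiglitazone arrays and 330.4 to 366 in MRL24 arrays, against 300.41 to 442 in untreated arrays. These overlapped in every pair of groups, and the adjusted p was 0.711 or more in each comparison with untreated cells.

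Pik3r1 encodes p85α and, from internal starts, shorter forms of the regulatory subunit that holds the catalytic subunit of PI3-kinase. It lies on chromosome 13, 101680761 to 101768217, on the minus strand. Its 3 probe sets are annotated to the same gene symbol, and where in the gene they bind was not analysed here. RefSeq gives windows for both of the starts its table lists for this gene, and since the probe sets gave different readings, the 250 bases before each start are shown, 5′ to 3′ on the gene's strand, with GC boxes (GGGCGG on either strand) in capitals.
Pik3r1, upstream start, chr13:101768218-101768467, minus strand, GRCm38.p6: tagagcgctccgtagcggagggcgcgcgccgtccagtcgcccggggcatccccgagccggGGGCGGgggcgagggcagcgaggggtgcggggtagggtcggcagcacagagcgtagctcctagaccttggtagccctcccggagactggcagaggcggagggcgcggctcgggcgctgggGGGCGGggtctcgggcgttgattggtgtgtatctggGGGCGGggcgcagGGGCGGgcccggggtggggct
Pik3r1, internal start, chr13:101692631-101692880, minus strand, GRCm38.p6: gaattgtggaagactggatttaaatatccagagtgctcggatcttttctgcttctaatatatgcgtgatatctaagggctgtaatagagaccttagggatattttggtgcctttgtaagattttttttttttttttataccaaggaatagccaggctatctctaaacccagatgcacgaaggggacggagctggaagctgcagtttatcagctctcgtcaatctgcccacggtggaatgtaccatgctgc
The window of the upstream start holds 4 GC boxes and that of the internal start 0. GC boxes, the letters bound by SP factors, occur in 32.7% of the 32851 mouse windows of this length in the table, and no reading on either start follows from them.

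The dimmest of the 3 Pik3r1 probe sets (1425515_at) fell in S273A cells. It read 208, 199.69 and 167 in S273A arrays, 219, 193 and 242 in rosiglitazone arrays and 291, 249 and 264 in MRL24 arrays, against 328, 288 and 288 in untreated arrays. All S273A and all rosiglitazone arrays lay below all untreated ones, whereas MRL24 arrays overlapped them. In S273A cells the log2 difference was -0.61 (SE 0.11, limma adjusted p 0.00321, lower in 3 of 3 arrays), and it passed in all 20 alternative fits in which this probe set was tested, at an adjusted p of at most 0.0212. With rosiglitazone it was -0.44 (adjusted p 0.0207). That call was lost without untreated replicate 1 (0.0702), without rosiglitazone replicate 1 (0.0539) or 2 (0.109), and in the fit of the 6 arrays alone (0.0542). With MRL24 it was -0.16 (adjusted p 0.388).

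The second Pik3r1 probe set (1425514_at) read 562, 563 and 429 in S273A arrays, 461, 442 and 518 in rosiglitazone arrays and 584, 558 and 615 in MRL24 arrays, against 630.44, 587 and 605 in untreated arrays. With rosiglitazone the log2 difference was -0.35 (SE 0.10, limma adjusted p 0.0314), with no overlap between the groups. It was lost with no filter on dim probe sets (0.068), without untreated replicate 1 (0.0792) or 3 (0.056) and without rosiglitazone replicate 1 (0.0941) or 2 (0.136). In S273A cells it was -0.23 (adjusted p 0.162). The brightest Pik3r1 probe set (1451737_at) read 1140 to 1207 in S273A arrays, 1065 to 1195 in rosiglitazone arrays and 1115 to 1246 in MRL24 arrays, against 1062 to 1256 in untreated arrays. Its log2 differences were 0.04, -0.03 and 0.05 with an SE of 0.07, so the 3 probe sets of this gene gave different results and a change of the whole gene's mRNA was not shown.

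The AKT kinases carry the signal from the membrane to glucose uptake, AKT2 being the form most tied to it in fat and muscle. Akt1 (chromosome 12, 112653821 to 112674884) had a bright probe set at 2607 to 2885 in S273A arrays, 2784 to 3043 in rosiglitazone arrays and 2816 to 3060.24 in MRL24 arrays, against 2726 to 2877 in untreated arrays, with log2 differences of -0.03, 0.08 and 0.07. Its other probe set (1425711_a_at) read 1742, 1649 and 1657 in MRL24 arrays, against 1413, 1044 and 1525 in untreated arrays. The MRL24 arrays were the higher without overlap, and the log2 difference of 0.36 (SE 0.11) missed the threshold at an adjusted p of 0.0509. It passed in 4 of 21 alternative fits: without untreated replicate 1 (0.0398) or 3 (0.0155), with a pseudocount of 64 (0.0498) and with the 50th percentile as filter (0.0438). Among the others the log2 difference went down to 0.19 and the adjusted p up to 0.182. With rosiglitazone this probe set read 1653, 1661 and 1452, which overlaps the untreated arrays, and the log2 difference was 0.27 (adjusted p 0.129). It passed in 1 of 21 alternative fits, without untreated replicate 3 (0.034), and its adjusted p reached 0.465 in another.

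Akt2 (chromosome 7, 27591552 to 27640826) also had 2 probe sets. The brighter read 906 to 1033 in S273A arrays, 950.1 to 988 in rosiglitazone arrays and 880.01 to 963 in MRL24 arrays, against 911 to 1002 in untreated arrays, with log2 differences between -0.05 and 0.01. The other (1421324_a_at) read 314, 364 and 282 in S273A arrays, 366, 466 and 352 in rosiglitazone arrays and 446, 428 and 426 in MRL24 arrays, against 304, 238 and 336 in untreated arrays. The rosiglitazone and MRL24 arrays lay above the untreated ones without overlap. With MRL24 it was 1.47-fold higher (log2 difference 0.56, SE 0.13, limma adjusted p 0.0166), and with rosiglitazone the log2 difference of 0.41 had an adjusted p of 0.0525. The MRL24 call was lost with no filter (0.0508), without untreated replicate 2 (0.0695) and without MRL24 replicate 1 (0.0545), 2 (0.055) or 3 (0.0593). The rosiglitazone difference passed in 3 of 21 alternative fits: without untreated replicate 3 (0.0239), without rosiglitazone replicate 3 (0.0499) and with the 50th percentile as filter (0.0443). Among the others its adjusted p reached 0.241.

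Rictor rose with the mutant and with both ligands. It encodes the subunit that defines mTOR complex 2, the kinase of the hydrophobic motif of AKT, and lies on chromosome 15, 6708349 to 6800401, on the plus strand. Its single probe set read 817, 771 and 653 in S273A arrays, 787, 807 and 773 in rosiglitazone arrays and 798, 861 and 932 in MRL24 arrays, against 515, 462 and 562 in untreated arrays. Every array of the 3 groups was above every untreated array, and the 3 groups overlapped each other. Rictor averaged 747 ± 84.7 in S273A cells, 789 ± 16.9 with rosiglitazone and 864 ± 67.1 with MRL24, against 513 ± 49.8 in untreated cells (intensity, SD, n = 3 each). The log2 differences were 0.53, 0.61 and 0.74 (SE 0.09), with limma adjusted p of 0.00183, 0.000378 and 0.000454. They passed in all 22 alternative fits of each comparison, those without untreated replicate 2 included, at an adjusted p of at most 0.022, 0.00342 and 0.01. Since Rictor rose in each comparison with untreated cells, the 250 bases before the start listed with its RefSeq window are shown. GC boxes are in capitals (CCGCCC is GGGCGG on the other strand). That start lies inside the gene span given above, so the last bases of the window fall within the span.
Rictor, chr15:6708131-6708380, plus strand, GRCm38.p6: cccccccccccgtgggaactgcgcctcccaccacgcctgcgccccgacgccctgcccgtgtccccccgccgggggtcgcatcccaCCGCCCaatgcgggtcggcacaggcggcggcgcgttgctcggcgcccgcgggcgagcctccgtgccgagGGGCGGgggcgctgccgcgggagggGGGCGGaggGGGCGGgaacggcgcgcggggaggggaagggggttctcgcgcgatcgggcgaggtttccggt
The 4 GC boxes begin 165, 96, 71 and 62 bases before the start, and the window holds neither AGGTCANAGGTCA, the direct repeat bound by PPARγ with RXR, nor AGGTCA, its single unit.

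The same letters were searched on both strands of the 12 RefSeq windows that match 7 of the 9 genes; Insr and Slc2a4 had no entry. The direct repeat AGGTCANAGGTCA was in 0 of the 12, and is in 0.0335% of all 32851 windows. The single unit AGGTCA, which the direct repeat contains, and GTAAACA, a FOXO site, were each in 1 window, that of the upstream start of Akt1, where 14% and 3.17% of all windows hold them. The E-box CACGTG was in the windows of Irs1 and Irs2, and in 6.02% of all. GC boxes were in 7 of the 12. These are matches of letters in a short window, not sites shown to be bound.

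Cbl encodes an adaptor and ubiquitin ligase that is phosphorylated by the insulin receptor in fat cells and lies on chromosome 9, 44142976 to 44234259. Its probe sets differed. One (1450457_at) read 171, 232 and 191 in S273A arrays, 268, 296 and 235 in rosiglitazone arrays and 206, 267 and 224 in MRL24 arrays, against 204, 169.96 and 172 in untreated arrays. The rosiglitazone and MRL24 arrays were above the untreated ones without overlap. With rosiglitazone it was 1.43-fold higher (log2 difference 0.51, SE 0.13, limma adjusted p 0.023), and with MRL24 the log2 difference of 0.32 had an adjusted p of 0.137. The call was lost with no filter (0.0548), without untreated replicate 2 (0.071) or 3 (0.0577) and without rosiglitazone replicate 1 (0.068) or 2 (0.117). The brighter Cbl probe set (1455886_at) read 341 to 357 in rosiglitazone arrays against 308 to 385 in untreated arrays, with a log2 difference of 0.05 (adjusted p 0.816). With MRL24 it had -0.10 (limma adjusted p 0.615) and in S273A cells -0.12 (0.566). The dimmer probe set had the opposite sign there, 0.32 and 0.11.

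Slc2a4 encodes GLUT4, the transporter that insulin brings to the surface of fat and muscle cells, and lies on chromosome 11, 69942286 to 69948216. Its tested probe set read 237, 222 and 234 in S273A arrays, 196, 223 and 263 in rosiglitazone arrays and 325, 241 and 239 in MRL24 arrays, against 189, 155 and 209 in untreated arrays. The S273A and MRL24 arrays lay above the untreated ones without overlap, and 1 MRL24 array stood above the other 2. Untreated replicate 2, the array that stood apart, was the lowest of the untreated arrays here and for Rictor, Akt2 1421324_a_at, Akt1 1425711_a_at and Cbl 1450457_at. With MRL24 it was 1.42-fold higher (log2 difference 0.50, SE 0.14, limma adjusted p 0.0364). The log2 difference was 0.31 in S273A cells (adjusted p 0.192) and 0.28 with rosiglitazone (0.222). The MRL24 call was lost with no filter (0.0802), with the 6 arrays alone (0.0936), without untreated replicate 2 (0.15) and without MRL24 replicate 1 (0.142), 2 (0.0617) or 3 (0.0657). The second Slc2a4 probe set lay below the filter, at 70.2, 96.8 and 88.7 in MRL24 arrays against 92, 64 and 74.3 in untreated arrays, which overlap; with no filter its adjusted p there was 0.776.

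**Figure D2:**
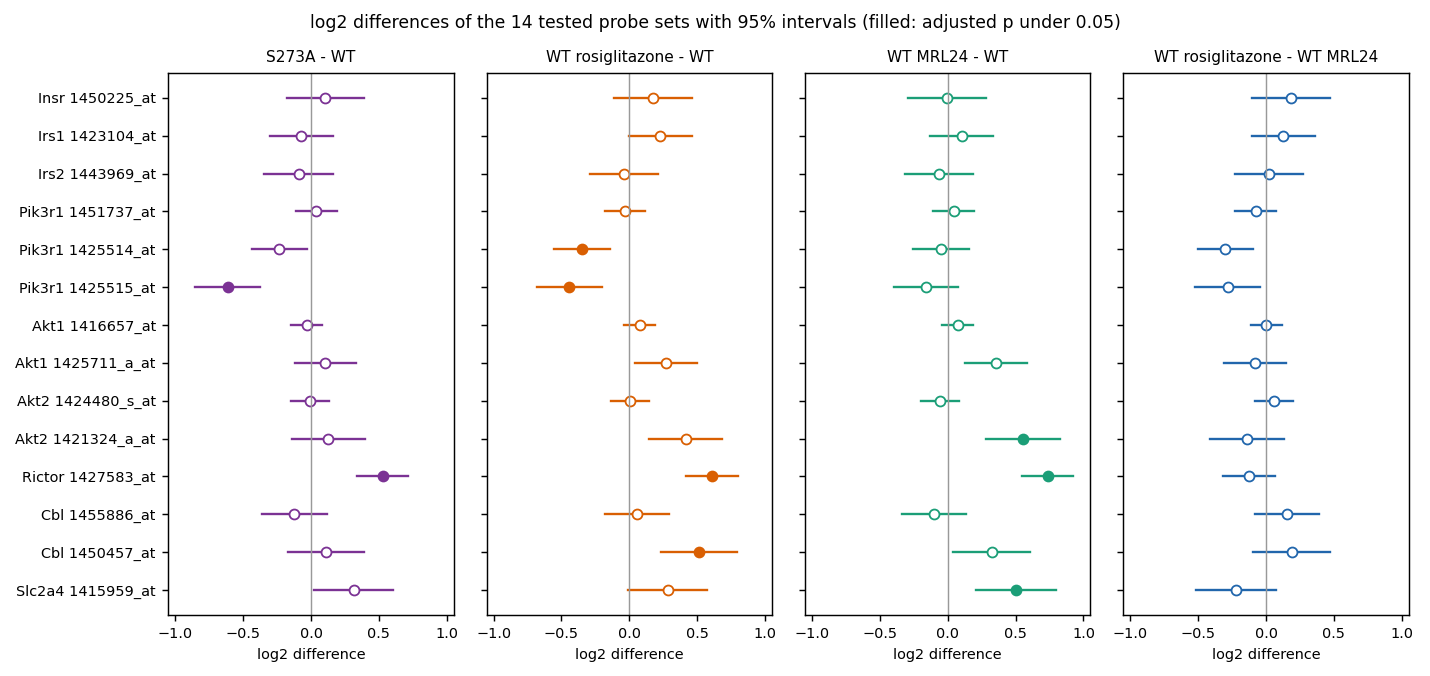
Log2 differences of the 14 tested member probe sets from untreated wild-type cells (S273A, rosiglitazone, MRL24) and between rosiglitazone and MRL24, with 95% confidence intervals from limma; filled points have an adjusted p under 0.05. Rictor is filled in all 3 comparisons with untreated cells, and no point is filled between the ligands.

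**Figure D3:**
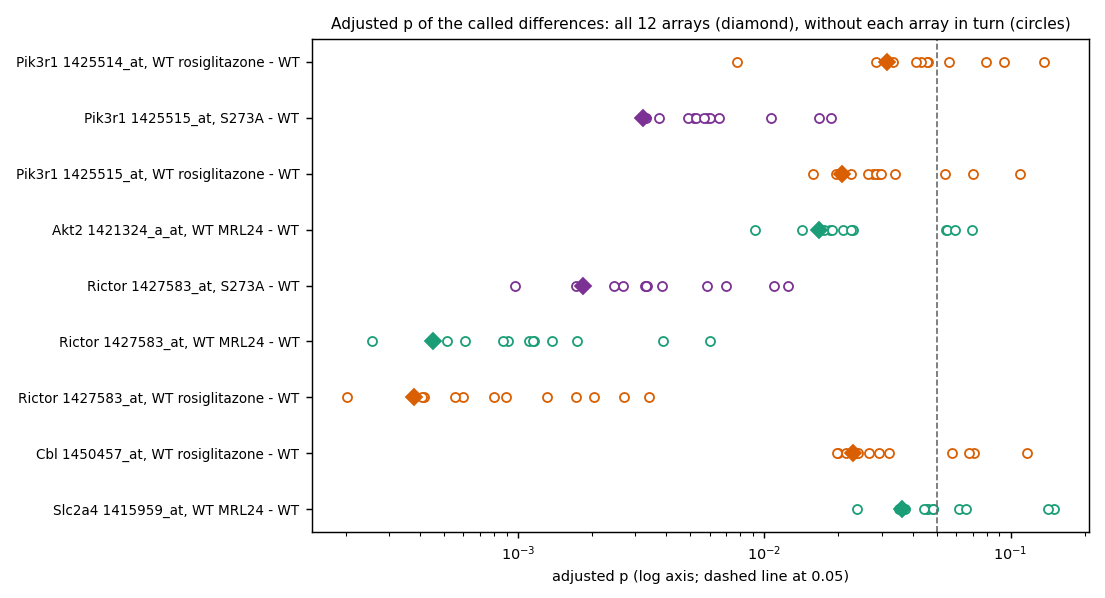
Adjusted p (log axis) of the called member probe sets with all 12 arrays (diamond) and with each array left out in turn (circles); the line marks 0.05. The points of Rictor and of the Pik3r1 probe set in S273A cells stay on one side of the line, and those of the other calls lie on both.

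Slc2a4 is also a skeletal muscle gene, and the adipocyte, fibroblast and muscle markers stand beside it. Of the 10 adipocyte markers tested, 2 were called higher in S273A cells, 6 with rosiglitazone and 3 with MRL24. Of all 9154 genes, each by its brightest probe set, 7.23%, 8.19% and 6.69% were called in either direction. Cd36, a fatty acid transporter and PPARγ target, had log2 differences of 0.82, 3.003 and 1.25, beside 0.31, 0.28 and 0.50 for Slc2a4. Of 12 fibroblast markers tested, 7 were called lower in S273A cells, 2 with rosiglitazone and 1 with MRL24; their summed intensity was 130249 to 137604 in S273A arrays, 137419 to 144107 in rosiglitazone arrays and 144443 to 149771 in MRL24 arrays, against 134700 to 146567 in untreated arrays. Of 18 muscle markers 5 were tested and 0 called by limma, with 0 at an unadjusted p under 0.05, and Myog and Acta1 lay below the filter; the summed intensity was 1431 to 1673 in S273A arrays, 1552 to 1594 in rosiglitazone arrays and 1526 to 1658 in MRL24 arrays, against 1370.1 to 1452 in untreated arrays. Of 6 macrophage markers tested 1, Cd68, was called, higher in S273A cells, with sums of 4231 to 4356 in S273A arrays, 3669 to 4013 in rosiglitazone arrays and 3745 to 3871 in MRL24 arrays, against 3555 to 4033 in untreated arrays. The part of these shifts in the member results was not tested, and in such bulk samples fewer cells of a type and less RNA per cell cannot be told apart. Pparg itself was not called in any of the 3 comparisons, with log2 differences of 0.24, -0.11 and -0.09, nor were the control genes Actb, Hprt and Tbp, though Actb passed with rosiglitazone without untreated replicate 1 (0.0483) or 3 (0.0265), after quantile normalization (0.0374) and with the 50th percentile as filter (0.049), and with MRL24 without untreated replicate 3 (0.0366). At an unadjusted limma p under 0.05, 2 of the 3 control genes were lower in S273A cells, Hprt (-0.12) and Tbp (-0.18). With each ligand 1 of them was higher at that threshold. Of all tested probe sets 22.1%, 24.2% and 26.0% lay under it.

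Rosiglitazone and MRL24 were compared as 1 pair, at the same dose and time. Of the 14 member probe sets 0 were called by limma, where 2.25% of all tested probe sets were, and 2 had an unadjusted p under 0.05 (15.0% of all tested probe sets had) and did not overlap (25.9% of all did not). Both were Pik3r1 probe sets, lower with rosiglitazone: 1425514_at averaged 474 ± 39.4 with rosiglitazone and 586 ± 28.4 with MRL24 (SD, n = 3 each; log2 difference -0.30, adjusted p 0.132), and 1425515_at averaged 218 ± 24.7 with rosiglitazone and 268 ± 20.9 with MRL24 (-0.28, adjusted p 0.234). The first passed in 3 of 21 alternative fits: with array weights (0.0398), in the fit of the 6 arrays of the ligand groups (0.0373) and without S273A replicate 3 (0.0487). Among the others its adjusted p reached 0.37. For Rictor the log2 difference, rosiglitazone minus MRL24, was -0.13 with a 95% interval from -0.32 to 0.06, and for Slc2a4 it was -0.22 (adjusted p 0.499). Over the 14 probe sets the interval extended by a median of 0.235 to either side, and its ends reached -0.52 and 0.47, so differences up to that size lie within the intervals, and the ligands are not shown to act alike on these genes.

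The wider pathway was read from 4 lists of genes that work around the members, each gene by its brightest probe set. Of all 9154 genes read so, limma called 7.23% in S273A cells, 8.19% with rosiglitazone and 6.69% with MRL24. At an unadjusted p under 0.05 lay 22.1%, 24.2% and 26.0% of all tested probe sets. The counts of all 4 lists are to be read beside these shares. The unadjusted shares count every tested probe set rather than 1 per gene, so they are only a rough guide to those counts. Of 17 tested genes for the receptor's adaptors and brakes, 0 were called higher and 1, 2 and 2 lower in S273A cells, with rosiglitazone and with MRL24 (0, 2 and 3 higher and 6, 3 and 3 lower at an unadjusted p under 0.05). Their median log2 differences were -0.07, -0.05 and -0.01 (all genes 0.00, 0.00 and 0.01). Ptpn11 encodes SHP2, a tyrosine phosphatase of insulin and growth factor signals, and averaged 1272 ± 78.1 in S273A cells, 1385 ± 37.2 with rosiglitazone and 1309 ± 48.6 with MRL24, against 1618 ± 137 in untreated cells (SD, n = 3 each). It fell in S273A cells (log2 difference -0.34, SE 0.07, limma adjusted p 0.00454, in all 22 alternatives). The rosiglitazone call (-0.22, adjusted p 0.0492) was lost in 9 of the 12 fits without 1 array (up to 0.171, without untreated replicate 2), and the MRL24 call (-0.30, 0.0143) without untreated replicate 2 (0.0514) and MRL24 replicates 1 (0.0502) and 3 (0.0688). In the fit of 6 arrays both ligand calls were lost (0.119 and 0.0549). The other 2 Ptpn11 probe sets were between -0.04 and 0.21 in these comparisons. Socs3, an inhibitor of receptor signalling, fell with rosiglitazone (-0.24, limma adjusted p 0.0136). That call was lost without rosiglitazone replicate 1 (0.0734) and in the fit of 6 arrays (0.0681). With MRL24 it fell as well (-0.20, 0.0375), a call lost without each of the 3 MRL24 arrays (0.0889 to 0.129), untreated replicate 2 (0.134) or rosiglitazone replicate 2 (0.051). The MRL24 call was lost too with no filter (0.0616), array weights (0.0529) and 6 arrays (0.0782). The other 2 Socs3 probe sets lay between -0.17 and -0.02 with the ligands.

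Of 30 tested genes of the PI3K, AKT and mTOR arm, 0 were called higher and 2, 2 and 0 lower (2, 2 and 5 higher and 5, 3 and 4 lower at an unadjusted p under 0.05); the median log2 differences were -0.01, 0.04 and 0.04. Trib2, a pseudokinase of a family that binds AKT, averaged 1261 ± 9.8 in S273A cells, 1074 ± 75.45 with rosiglitazone and 1337 ± 40.6 with MRL24, against 1517 ± 39.2 in untreated cells. It fell in S273A cells (-0.26, limma adjusted p 0.0111, 0.0552 in the fit of 6 arrays) and with rosiglitazone (-0.49, 5.17e-05), and was the 1 gene of these lists that differed between rosiglitazone and MRL24 (-0.31, SE 0.06, 0.00778). That difference was lost without rosiglitazone replicate 3 (0.0611) or MRL24 replicate 2 (0.0565). Pik3ca, the catalytic subunit p110α that PIK3R1 holds, had -0.42 in S273A cells (adjusted p 0.0443), which was lost in 8 of the 12 fits without 1 array (up to 0.169, without S273A replicate 3). Tsc1, a brake on mTOR complex 1, had -0.32 with rosiglitazone (adjusted p 0.0309), lost without each of the 3 rosiglitazone arrays (up to 0.0933) and without untreated replicates 1 (0.0578) and 2 (0.118), while its other probe set had 0.36. The Tsc1 call was lost too with no filter (0.0538), array weights (0.0504) and 6 arrays (0.0779).

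Of 33 tested glucose transporters and genes of GLUT4 traffic, 1, 1 and 2 were called higher and 1, 0 and 0 lower (2, 3 and 7 higher and 3, 4 and 4 lower at an unadjusted p under 0.05), with median log2 differences of -0.01, 0.00 and 0.01. Txnip, an arrestin-like protein that lowers glucose uptake by removing GLUT1 and GLUT4 from the surface, averaged 8317 ± 296 in S273A cells, 7862 ± 184 with rosiglitazone and 7526 ± 107 with MRL24, against 5930 ± 94.0 in untreated cells. It rose by 0.49, 0.41 and 0.34 on the log2 scale (SE 0.04, limma adjusted p 1.81e-06, 3.29e-06 and 0.000153), in all 22 alternatives. Crk, an adaptor that binds phosphorylated CBL, had -0.28 in S273A cells (adjusted p 0.00767, 0.0541 in the fit of 6 arrays), with other probe sets between -0.39 and 0.04. Slc2a5, a fructose transporter, had 0.28 with MRL24 (adjusted p 0.0303), lost without untreated replicate 1 (0.059) or 2 (0.0822) and without each of the 3 MRL24 arrays (up to 0.121). The Slc2a5 call was lost too with no filter (0.0525), with arrays scaled to the same median (0.0541) and with 6 arrays (0.0657). Slc2a1, the basal transporter GLUT1, was not called.

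Of 8 tested genes of the IGF axis, which shares IRS proteins and PI3-kinase with insulin, 0 were called higher and 1 lower in each comparison with untreated cells (0, 0 and 2 higher at an unadjusted p under 0.05), with median log2 differences of 0.00, 0.01 and 0.07. Igfbp3, an IGF carrier, averaged 8343 ± 182 in S273A cells, 11624 ± 407 with rosiglitazone and 11912 ± 202 with MRL24, against 11372 ± 349.87 in untreated cells, and fell in S273A cells (log2 difference -0.45, SE 0.04, limma adjusted p 3.56e-06). Igfbp6, which prefers IGF2, averaged 3515 ± 93.9 in S273A cells, 2791 ± 134 with rosiglitazone and 2967 ± 172 with MRL24, against 3696 ± 167 in untreated cells. It fell with rosiglitazone (-0.40, adjusted p 0.000182) and with MRL24 (-0.32, 0.00429), and in S273A cells had -0.07 (0.483).

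**Figure D4:**
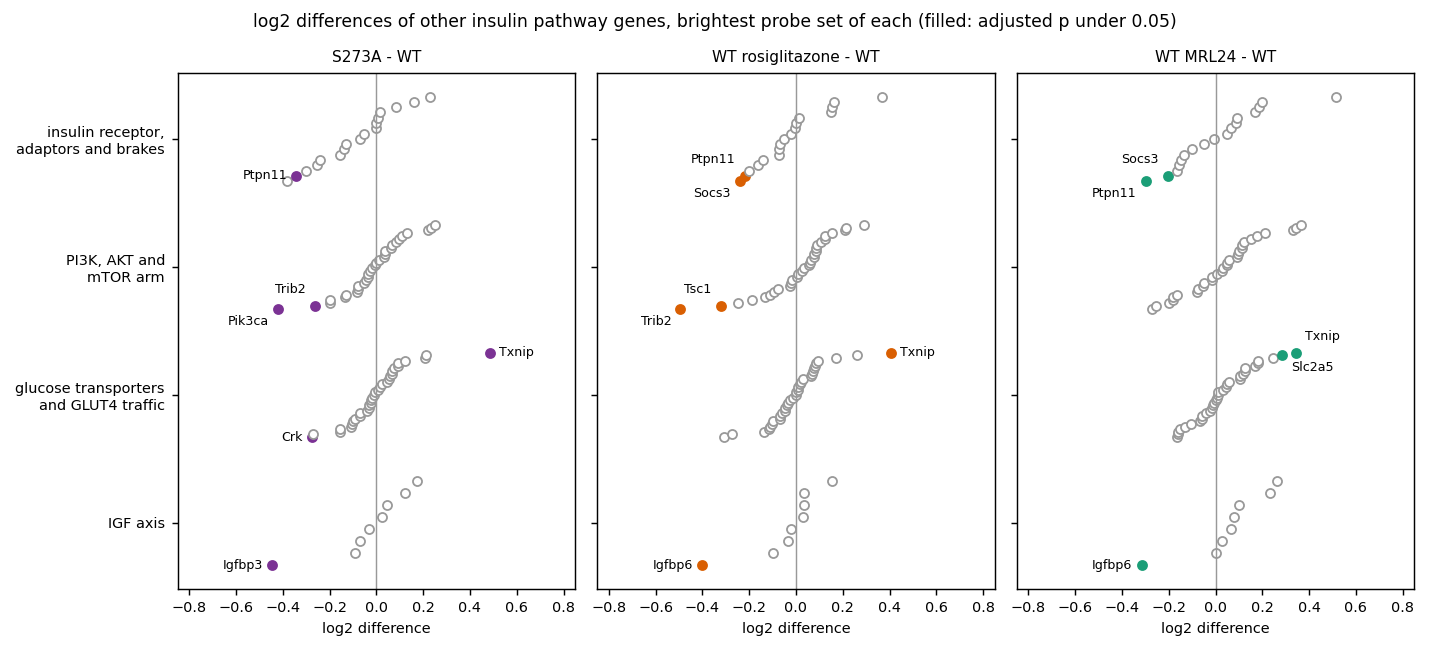
Log2 differences of the tested genes of the 4 pathway lists, each by its brightest probe set, in S273A, rosiglitazone-treated and MRL24-treated cells minus untreated wild-type cells. Filled points have an adjusted p under 0.05 and carry the gene's name; Txnip is filled on the right in all 3 panels, and most points lie open around 0.

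Likeness to the members called by their brightest probe set was described by Pearson's r of the log2 values over the 12 arrays, across 9153 other genes. For Rictor the closest were Lman2, a cargo lectin of the secretory route (0.96), Atf7, a transcription factor of the ATF family (0.95), and Tnfrsf23, a TNF receptor family member (0.94). Atf7 averaged 999 in S273A cells, 1066 with rosiglitazone and 1129 with MRL24, against 726 in untreated cells. For Slc2a4 they were B4galt2, a galactosyltransferase (0.89), Taf6l, a subunit of histone acetylase complexes (0.89), and Tshz2, a zinc finger protein (0.89). The 12 arrays share groups and untreated replicate 2, so these values are given as a description.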

How the data were processed

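Total RNA of differentiated mouse embryonic fibroblasts was reverse transcribed from an oligo-dT primer, copied into biotin-labelled RNA and hybridised to 12 Affymetrix arrays, per the labels' protocols. The authors deposited linear intensity values; their normalization and probe set summary are not given in the sources used here, and the number of arrays limits the precision. Values at 1 made up 2.09% to 2.46% of an array. The platform annotation gives 1 gene symbol for 20380 of the 22690 probe sets, several for 691, 1555 are not named here and 64 are controls; 20351 were looked up in RefSeq by Entrez ID and 0 symbols changed.

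Values were used as log2(value + 16) and fitted with limma 3.58.1 in R 4.3.3 (group means, eBayes with trend; 8 residual and 7.76 prior degrees of freedom), and p-values were adjusted over 15838 probe sets. A rank test of 3 against 3 arrays could not go below an exact p of 0.1. Mean ± SD are of intensities, and folds are of the transformed values. The fit was tested on simulated data. Tables and figures used python 3.11.15, numpy 2.4.6, pandas 2.3.3 and matplotlib 3.10.9.

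Every member was described, and of each pathway list up to 4 called genes in each direction, by size; for likeness, the 3 genes with the highest r. The members and lists were chosen with earlier results of these data known. Promoter windows and gene positions are from RefSeq, GRCm38.p6. Alternatives were the pseudocount, the filter, 2 scalings, array weights, the brightest probe sets, 6 arrays, the replicate block and each array left out; those for pathway lists were added after seeing the data.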

Additional observations from a re-analysis of the deposited data

How the results depend on the processing

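Counts of called member probe sets (S273A 2, rosiglitazone 4, MRL24 3, rosiglitazone against MRL24 0) and of all called probe sets (1221, 1463, 1336 and 356) moved as follows. With only the brightest probe set of each gene, 1 member was called in S273A cells and 1 with rosiglitazone, and 675, 739, 508 and 231 probe sets in all. With no filter, 2 members were called with rosiglitazone and 1 with MRL24, and 727 probe sets with MRL24; with the 50th percentile as filter, 1 member was called in S273A cells. With the 6 arrays of each comparison alone, all called probe sets numbered 415, 734, 415 and 1006, and 1 member was called between the ligands. With array weights 1 member was called between the ligands, and 1105 probe sets in all. Leaving out 1 array at a time gave 2, 1 to 5, 1 to 4 and 0 to 1 called members, and 723 to 1227, 752 to 1611, 322 to 1784 and 160 to 865 called probe sets. The cause of these moves was not tested, except that another filter or the brightest-only fit tests another set of probe sets: at the 50th percentile 9 member probe sets were tested, and Pik3r1 1425515_at was not among them. Of all called probe sets 33.5%, 54.5%, 68.3% and 56.5% were higher; with arrays scaled to the same median these shares were 37.3%, 44.8%, 43.1% and 68.3%, and after quantile normalization 41.1%, 50.5%, 55.7% and 60.5%.

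Of 1192 alternative values of single member probe sets, 1153 kept their side of the threshold, 28 lost the call, 11 gained it and 0 changed sign while called. Most of these values belong to differences not called with all 12 arrays, which had no call to lose. With rosiglitazone the call held in 15 of 21 alternatives for Pik3r1 1425514_at, 16 of 20 for Pik3r1 1425515_at and 15 of 20 for Cbl 1450457_at. With MRL24 it held in 13 of 21 for Slc2a4 1415959_at and 16 of 21 for Akt2 1421324_a_at. Besides the losses given with each gene, the Slc2a4 call with MRL24 was lost after quantile normalization (0.0546) and with array weights (0.0542). No pairing of arrays by replicate number was seen: deviations of same-numbered arrays correlated at -0.115 to 0.124 and of others at -0.128 to 0.152. With the replicate block 2, 3, 3 and 0 members and 1017, 1239, 1059 and 280 probe sets were called, and the Pik3r1 probe set 1425514_at was lost with rosiglitazone (0.0513).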
